A study of Mus musculus with 27 samples.

Results

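The substantia nigra pars compacta (SNc) is one of the midbrain regions that hold dopaminergic neurons. Cells sorted from it as positive for the dopamine transporter (DAT+) were compared at postnatal day 30 (P30, the juvenile phase) and postnatal day 7 (P7, infancy). The comparison used 6 of the 27 RNA libraries, 3 of each age, chosen by region and age. All mice were C57/BL6 with no other allele or treatment given, and all libraries were SMART-seq2 libraries read as 150 bp pairs. The other 21 libraries are SNc at P60, and the nucleus accumbens (NAc) and the ventral tegmental area (VTA) at P7, P30 and P60. The labels name 5 mice per age for 9 libraries per age and do not tie a library to a mouse, so libraries of an age may share mice and p-values measure only the spread between these samples. The sources used here do not say how DAT+ cells were marked for the sort. The library titles of each age carry their own run string, so age and sequencing run cannot be told apart.

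Midbrain dopaminergic neurons make dopamine from tyrosine with tyrosine hydroxylase (Th) and dopa decarboxylase (Ddc), load it into vesicles with the transporter Slc18a2 and take it back up with DAT, the product of Slc6a3. Microglia are the resident macrophages of the brain. In the first postnatal weeks they divide, clear cells and synapses and then take on the surveying state marked by Tmem119 and P2ry12, while border-associated macrophages, marked by Mrc1 and Lyve1, sit in the meninges and around vessels. Astrocytes mature and myelin forms over the same weeks.

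The P7 libraries held 13276290 to 13802952 reads in genes and the P30 libraries 9248048 to 9619158. Between 17800 and 19082 genes had a read at P7, and between 12437 and 16294 at P30. Mitochondrially encoded genes took 8.26% to 10.4% of reads at P7 and 7.70% to 14.7% at P30. Spearman's rho between libraries of an age was 0.824 to 0.835 at P7 and 0.689 to 0.736 at P30. Levels are given as rescaled FPKM, the deposited FPKM (fragments per kilobase of gene and per unit of depth) after each library was scaled to its own reads in genes, and values of a gene stand in replicate order.

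The labelled cell type was checked first. Slc6a3, the gene that encodes DAT, was at 0.0629, 1.39 and 53.4 at P7 and 0, 0.156 and 0 at P30. One P7 library held nearly all of its signal and the ages overlapped (log2 fold change -2.30 ± 0.92, adjusted p = 0.144 by limma). Th was at 3.34, 14.6 and 0 at P7 and 0, 0 and 1.28 at P30 (log2 fold change -1.63 ± 0.96, adjusted p = 0.361). Slc18a2 was at 12.1, 4.16 and 8.13 at P7 and 0.309, 0.739 and 0 at P30 (log2 fold change -2.69 ± 1.04, adjusted p = 0.128), and Ddc was at or below 1.71 in all 6 libraries (log2 fold change -0.60 ± 0.63, adjusted p = 0.66). Pitx3, a transcription factor of these neurons, had no read in any of the 6. Abundant microglial genes were far higher: C1qb, a subunit of the complement starter C1q, was at 2971, 3281 and 3147 at P7 and 5467, 8844 and 6815 at P30. The defining dopaminergic genes were therefore low beside C1qb at both ages, and the libraries are called SNc sorted cells here. Their highest value was Slc6a3 at 53.4 in P7 replicate 3, above the microglial gene Tmem119, at 34.7 in that library. In bulk samples fewer cells of a type and less RNA per cell cannot be told apart.

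Of 18888 genes tested, 1249 (6.61%) changed between P7 and P30 at an adjusted p under 0.05 (limma with Benjamini-Hochberg adjustment). Of these, 289 (1.53% of genes tested) were higher at P30 and 960 (5.08%) were lower. At an unadjusted p under 0.05 there were 3844 genes (20.4%). Higher genes made up 23.1% of the calls, and 40.8% of them under quantile normalization, which moved the median log2 fold change of all genes from -0.27 to 0.0036. All 3 P30 libraries lay above all 3 P7 libraries for 9.51% of genes tested and below them for 23.7%. Of the called genes 1023 were protein coding. Fold changes are given on the log2(rescaled FPKM + 1) scale with their standard error, which understates changes of genes with low levels. The sources used here do not say that counting used strand, so overlapping and antisense genes cannot be told apart.

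**Figure D1:**
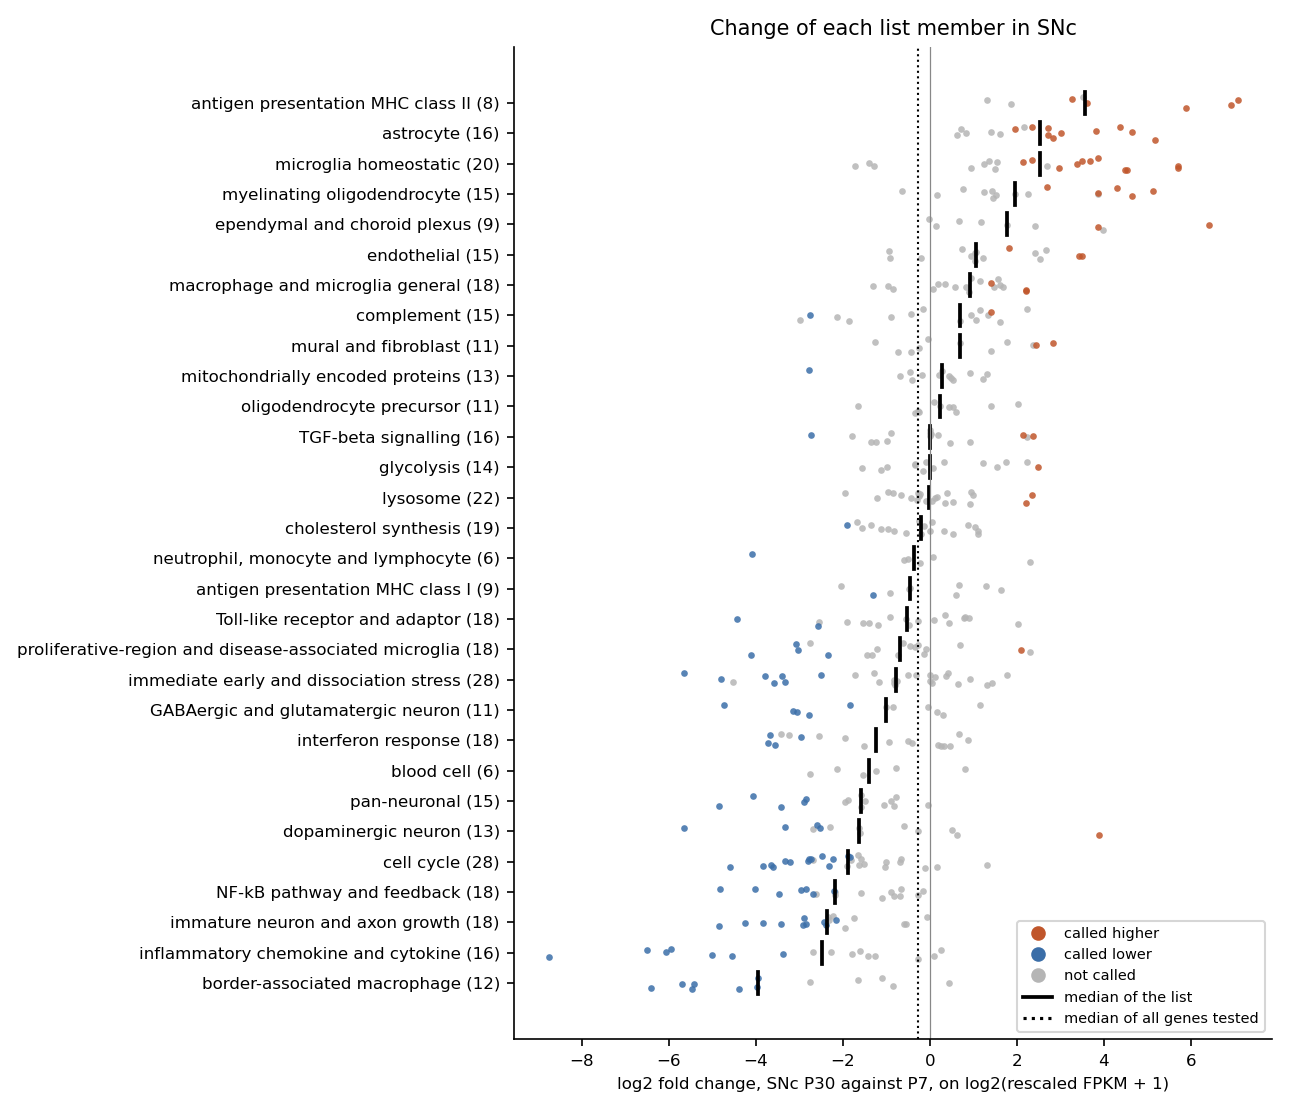
Log2 fold change at P30 against P7 on log2(rescaled FPKM + 1) for each member that passed the filter of 30 gene lists, with the list's number of tested members in parentheses. Points are genes coloured by call, black bars are list medians, and the dotted line is the median of all genes tested, -0.27. Lists run from a median of 3.56 for MHC class II to -3.96 for border-associated macrophages.

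Genes of homeostatic microglia were higher at P30. All 20 passed the filter, 11 were called higher and 0 lower, against 1.53% of all genes called higher. Their median log2 fold change was 2.52 beside -0.27 for all genes, and their summed level was 3079 to 3520 at P7 and 19975 to 29042 at P30. With one SNc library left out the number called higher was 7 (without P7 replicate 2) to 9.

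Tmem119, a membrane protein that marks microglia, was at 60.02, 33.1 and 34.7 at P7 and 2087, 2800.0 and 1848 at P30. All P30 libraries lay above all P7 libraries, and the gene (chr5:113793729-113800516, GRCm38) rose (log2 fold change 5.72 ± 0.62, adjusted p = 4.05e-06). Selplg, the ligand of P-selectin, was at 8.17, 12.1 and 10.8 at P7 and 445, 910.2 and 486 at P30 and rose (log2 fold change 5.69 ± 0.53, adjusted p = 1.08e-06). Cst3, the protease inhibitor cystatin C, was at 1286, 1447 and 1122 at P7 and 12910.2, 17271 and 13308 at P30. It was among the most abundant of these genes at both ages and rose (log2 fold change 3.49 ± 0.47, adjusted p = 4.99e-05). Most of the list's summed level at P30, which was 19975, 29042 and 21269 in replicate order, came from Cst3. The purine receptor P2ry13 (log2 fold change 3.86 ± 0.83, adjusted p = 0.00518) and the lysophosphatidylserine receptor Gpr34 (log2 fold change 4.49 ± 1.02, adjusted p = 0.00782) also rose.

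Other microglial genes did not pass the test. Cx3cr1, the fractalkine receptor, was at 59.4, 57.6 and 85.4 at P7 and 128, 265 and 152 at P30, without overlap between the ages (log2 fold change 1.37 ± 0.62, adjusted p = 0.213). Csf1r, the receptor for the survival factor CSF1, was at 560.2, 532 and 517 at P7 and 194, 256 and 167 at P30, with all P30 libraries below all P7 libraries (log2 fold change -1.40 ± 0.56, adjusted p = 0.146). Fcrls, an Fc receptor-like gene, was at 584, 652 and 601 at P7 and 169, 226 and 162 at P30 (log2 fold change -1.73 ± 1.02, adjusted p = 0.361).

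Of 18 general macrophage and microglia genes, 3 were called higher and 0 lower, against 1.53% of all genes called higher, with a median of 0.92 beside -0.27 for all genes. Without P7 replicate 3 only 1 was called, and with the values as deposited 0 were called by limma and 2 had an unadjusted p under 0.05. Ctss, the lysosomal protease cathepsin S, was at 1095, 1266 and 1101 at P7 and 3869, 6841 and 5763 at P30 and rose (log2 fold change 2.21 ± 0.45, adjusted p = 0.00352). Aif1, the actin-binding protein Iba1, rose as well (log2 fold change 2.20 ± 0.52, adjusted p = 0.0102), a call that was lost without P7 replicate 3. C1qc was at 2159, 2298 and 2274 at P7 and 6431, 6216 and 5343 at P30 (log2 fold change 1.41 ± 0.43, adjusted p = 0.046), and its call was lost when any one of the 6 libraries was left out. C1qa was at 2577, 2956 and 2579 at P7 and 3562, 7407 and 5284 at P30 (log2 fold change 0.94 ± 0.71, adjusted p = 0.5), and the signalling adaptor Tyrobp had a log2 fold change of 0.90 ± 0.60, adjusted p = 0.438. The summed level of the list was 13965 to 15780 at P7 and 24866 to 39217 at P30. Of 15 complement genes tested, only C1qc was called higher and only C2 lower, against 1.53% and 5.08% of all genes. C2, a protease of the classical pathway, was at 8.06, 6.93 and 6.64 at P7 and 0, 0.782 and 0 at P30 (log2 fold change -2.76 ± 0.39, adjusted p = 8.52e-05). C5ar1, the receptor of the fragment C5a, was at 432, 463 and 528 at P7 and 68.9, 142 and 127 at P30 (log2 fold change -2.13 ± 1.07, adjusted p = 0.269). In the lysosome list 2 of 22 genes were called, both higher, against 1.53% of all genes called higher. Ctss was among them, and the list's median was -0.02 beside -0.27 for all genes. Ctsz, cathepsin Z, was at 1115, 1164 and 1137 at P7 and 1929.6, 2599.8 and 2283 at P30, without overlap between the ages (log2 fold change 0.98 ± 0.41, adjusted p = 0.165).

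Genes of border-associated macrophages were lower at P30. Of 12 tested, 7 were called lower and 0 higher, against 5.08% of all genes called lower, and the median log2 fold change was -3.96. Their summed level was 2447 to 2826 at P7 and 110 to 289 at P30. With one SNc library left out, 5 or 6 were called lower.

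Lyve1, a hyaluronan receptor, was at 211, 261 and 281 at P7 and 9.09, 1.48 and 0 at P30. The groups were far apart and the gene (chr7:110850607-110863239, GRCm38) fell (log2 fold change -6.42 ± 0.93, adjusted p = 0.000121). F13a1, a subunit of clotting factor XIII, was at 114, 85.97 and 108 at P7 and 1.62, 1.86 and 0 at P30 and fell (log2 fold change -5.71 ± 0.83, adjusted p = 0.000117). Dab2, an endocytic adaptor, was at 137, 132 and 136 at P7 and 0.466, 5.36 and 2.07 at P30 and fell (log2 fold change -5.48 ± 0.65, adjusted p = 1.14e-05). Folr2, the folate receptor beta, was at 28.1, 43.9 and 63.6 at P7 and 0.0692, 0 and 0 at P30 and had 1 read over the 3 P30 libraries. The ratio of its summed reads per read in genes was 0.000508 (95% counting interval 1.29e-05 to 0.00283), and its call passed the test (log2 fold change -5.42 ± 0.69, adjusted p = 2.43e-05). Cd163, the scavenger receptor for haemoglobin, was at 20.6, 23.2 and 18.5 at P7 and 0, 0.238 and 1.16 at P30 (log2 fold change -3.97 ± 0.70, adjusted p = 0.000958). The mannose receptor Mrc1 fell (log2 fold change -3.95 ± 0.93, adjusted p = 0.0102), a call that was lost without P30 replicate 3. Ms4a7 was at 50.1, 58.8 and 61.1 at P7 and 9.53, 19.2 and 1.91 at P30 and did not pass (log2 fold change -2.75 ± 1.01, adjusted p = 0.106). Outside the list, the lectin Fcna was at 327, 351 and 354 at P7 and 25.3, 5.98 and 0 at P30 and fell (log2 fold change -5.92 ± 1.37, adjusted p = 0.00929), a call lost without P30 replicate 3.

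**Figure D2:**
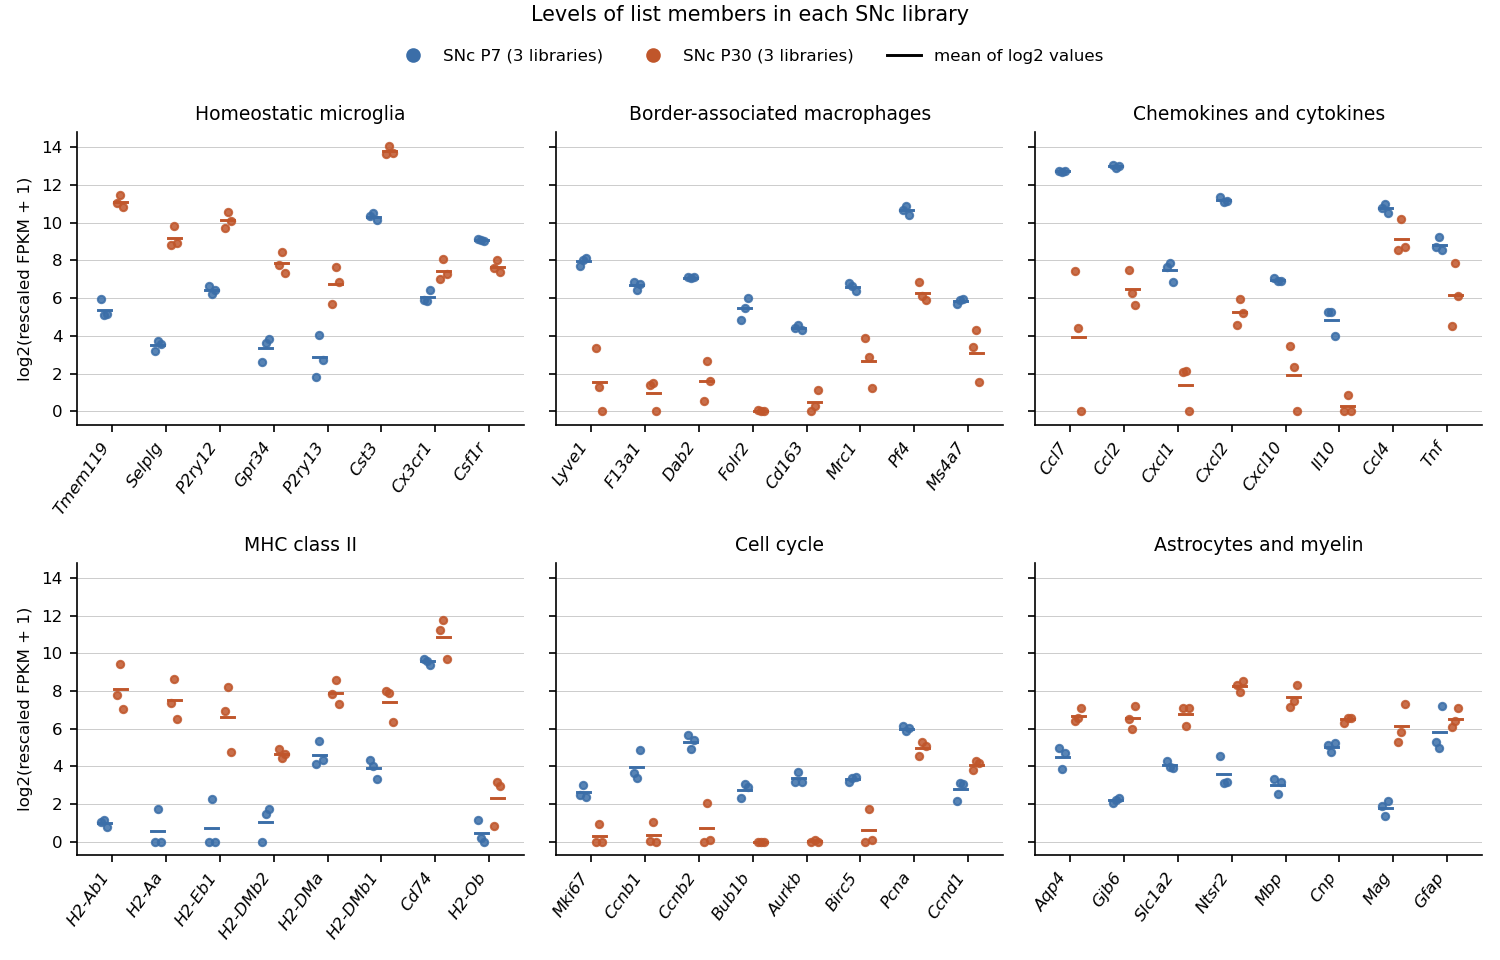
Level of 8 members of each of 6 list groups, as log2(rescaled FPKM + 1), in each of the 3 P7 (blue) and 3 P30 (orange) SNc libraries, with bars at the mean of the log2 values. Tmem119 and Selplg are higher in every P30 library than in any P7 library, and Lyve1, F13a1, Ccl7 and Ccl2 are lower. The genes shown were picked for display, and those outside the naming rule were picked after their values were seen.

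Of 18 genes of proliferative-region and disease-associated microglia, 4 were called lower and 1 higher, against 5.08% and 1.53% of all genes, with a median of -0.68, or -0.98 with a gene at 0 in a group set at its bound. With one SNc library left out, 2 or 3 were called lower, and the 2 were found without P30 replicate 1 and without P30 replicate 3. Igf1, insulin-like growth factor 1, was at 26.4, 25.9 and 26.1 at P7 and 1.19, 0.764 and 0 at P30 and fell (log2 fold change -4.11 ± 0.76, adjusted p = 0.00149). Lpl, lipoprotein lipase, was at 41.7, 39.5 and 32.8 at P7 and 5.49, 5.67 and 1.23 at P30 and fell (log2 fold change -3.08 ± 0.68, adjusted p = 0.00615), a call lost without P30 replicate 3. Csf1 also fell (log2 fold change -3.04 ± 0.69, adjusted p = 0.00782), a call lost without P30 replicate 1. Apoe, the lipid carrier apolipoprotein E, was at 8547, 9231 and 7978 at P7 and 3529, 3144 and 3621 at P30, with all P30 libraries below all P7 libraries (log2 fold change -1.32 ± 0.43, adjusted p = 0.0672). Ctsb, cathepsin B, was at 1092, 1114 and 1104 at P7 and 496, 563 and 376 at P30 (log2 fold change -1.22 ± 0.40, adjusted p = 0.064).

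Chemokines and cytokines were abundant at P7 and lower at P30. Chemokines are secreted proteins that draw in leukocytes, and many are switched on by the transcription factor NF-kB. Of 18 genes of the list, 16 passed the filter, 7 were called lower and 0 higher, against 5.08% of all genes called lower. The median log2 fold change was -2.48. The summed level was 23793 to 25513 at P7 and 1419 to 2676 at P30. With any one SNc library left out, 6 were called lower. The promoters of Cxcl1 and Cxcl2, the chemokine genes with the largest decrease that have an entry in the table used, are printed to show the NF-kB type motif in them. They come from RefSeq (GRCm38.p6) and span 300 bases around the start, and capitals mark GGGNN followed directly by TTTCC, on either strand.
Cxcl1 (chr5:90890995-90891294, plus strand): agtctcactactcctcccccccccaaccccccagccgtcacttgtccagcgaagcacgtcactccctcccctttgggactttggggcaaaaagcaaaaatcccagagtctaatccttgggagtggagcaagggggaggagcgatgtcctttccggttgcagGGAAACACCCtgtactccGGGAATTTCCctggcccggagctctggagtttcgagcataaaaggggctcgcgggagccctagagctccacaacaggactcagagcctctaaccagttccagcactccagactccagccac
Cxcl2 (chr5:90903649-90903948, plus strand): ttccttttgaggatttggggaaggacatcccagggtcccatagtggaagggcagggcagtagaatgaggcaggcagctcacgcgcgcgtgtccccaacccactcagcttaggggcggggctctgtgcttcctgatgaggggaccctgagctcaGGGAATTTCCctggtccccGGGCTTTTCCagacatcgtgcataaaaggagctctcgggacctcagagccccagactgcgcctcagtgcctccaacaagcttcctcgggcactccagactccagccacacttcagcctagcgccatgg

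Counted from the start, the matches began at -89 (minus strand) and -71 in Cxcl1 and at -97 and -78 in Cxcl2. Of the 7 called chemokine and cytokine genes, 4 had a promoter entry and 2 of these held the motif. Of the 10 tested genes with an entry, 3 held it, and 1.62% of all 27025 promoters did. A match is a description of the letters and not a measured binding site.

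Ccl2, which draws monocytes, was at 8468, 7702 and 8139 at P7 and 177, 77.5 and 48.8 at P30. It was among the most abundant chemokines at P7, and all P30 libraries were far below (log2 fold change -6.51 ± 1.32, adjusted p = 0.00352). Ccl7, its neighbour in the same cluster (chr11:82045712-82047525, GRCm38), was at 6843, 6487 and 6899 at P7 and 174, 20.4 and 0 at P30 and had the largest decrease chosen by the naming rule (log2 fold change -8.76 ± 1.53, adjusted p = 0.000863). Cxcl2, which draws neutrophils, was at 2622, 2206 and 2252 at P7 and 23.01, 60.5 and 35.7 at P30 and fell (log2 fold change -5.96 ± 1.26, adjusted p = 0.00478). Cxcl1, of the same class, was at 202, 231 and 117 at P7 and 3.19, 3.403 and 0 at P30 (log2 fold change -6.07 ± 0.80, adjusted p = 3.88e-05). Cxcl10, a chemokine induced by interferon, was at 134, 118 and 119.5 at P7 and 10.1, 4.13 and 0 at P30 (log2 fold change -5.02 ± 0.98, adjusted p = 0.00257), and Il10, an anti-inflammatory cytokine, was at 37.5, 37.9 and 14.7 at P7 and 0, 0.825 and 0 at P30 (log2 fold change -4.55 ± 0.60, adjusted p = 3.76e-05). Other cytokines of the list did not pass. Tnf, tumour necrosis factor, was at 418, 596 and 378 at P7 and 21.8, 228 and 67.04 at P30 (log2 fold change -2.69 ± 1.23, adjusted p = 0.215). Ccl4 was at 1753, 2042 and 1438 at P7 and 372, 1176 and 421 at P30 (log2 fold change -1.60 ± 1.57, adjusted p = 0.631), with P30 replicate 2 the highest of the P30 libraries, and Ccl12 had a log2 fold change of -1.27 ± 1.26, adjusted p = 0.635. Outside the list, 2 other secreted or surface ligands fell. Tnfsf18, the ligand of the receptor GITR, was at 48.4, 52.2 and 58.3 at P7 with no read at P30, at least 337-fold lower against a floor of 3 reads per library (log2 fold change -5.75 ± 0.65, adjusted p = 7.22e-06). Csf2, the growth factor GM-CSF, was at 13.2, 9.79 and 4.49 at P7 with no read at P30, at least 22.6-fold lower against the same floor (log2 fold change -3.24 ± 0.30, adjusted p = 1.08e-06).

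Of 18 genes of the NF-kB pathway and its feedback, 7 were called lower and 0 higher, against 5.08% of all genes called lower, with a median of -2.18. Without P7 replicate 3 only 3 were called lower, and without P7 replicate 1, P7 replicate 2 or P30 replicate 3 only 4. The subunit Nfkb2 was at 77.4, 72.8 and 69.9 at P7 and 1.46, 6.38 and 0 at P30 and fell (log2 fold change -4.82 ± 0.78, adjusted p = 0.000415). The subunit Rel was at 160.5, 129 and 107 at P7 and 3.01, 14.8 and 7.35 at P30 (log2 fold change -4.02 ± 0.78, adjusted p = 0.00232), and the nuclear regulator Nfkbid was at 603, 661 and 719 at P7 and 62.4, 59.7 and 54.99 at P30 (log2 fold change -3.46 ± 0.83, adjusted p = 0.0118). Nfkbia, the main inhibitor of NF-kB, was at 1153, 1249 and 1147 at P7 and 518, 1754 and 1011 at P30 with overlapping groups (log2 fold change -0.28 ± 0.58, adjusted p = 0.86), and its value changed sign without P30 replicate 1. Icam1, an adhesion molecule, was at 193, 264 and 237 at P7 and 8.31, 87.9 and 62.6 at P30 and did not pass (log2 fold change -2.62 ± 0.83, adjusted p = 0.0591). Of 18 Toll-like receptor and adaptor genes tested, 2 were called lower and 0 higher, a share near the 5.08% of all genes called lower, with a median of -0.52 beside -0.27 for all genes. Tlr2, a receptor for bacterial lipoproteins, was at 241, 303 and 302 at P7 and 7.38, 24.9 and 8.899 at P30 (log2 fold change -4.45 ± 0.99, adjusted p = 0.00702). The ubiquitin ligase Traf6 was at 17.8, 14.4 and 10.6 at P7 and 1.45, 2.37 and 0.936 at P30 (log2 fold change -2.57 ± 0.59, adjusted p = 0.00886). Cd14, the co-receptor for lipopolysaccharide, was at 626, 874 and 700.5 at P7 and 1438, 1323 and 1068 at P30, higher in every P30 library without passing (log2 fold change 0.80 ± 0.74, adjusted p = 0.599).

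Of 18 interferon response genes, 4 were called lower and 0 higher, against 5.08% of all genes called lower, with a median of -1.23. The other 14 were not called. The P30 libraries lay below the P7 libraries in 9 of 18 and above them in 1, against 23.7% and 9.51% of all genes. With one SNc library left out, 3 or 4 were called. Rsad2, the antiviral protein viperin, was at 17.9, 10.4 and 7.55 at P7 and 0, 0.0998 and 0 at P30 (log2 fold change -3.57 ± 0.59, adjusted p = 0.000523). Ifit2 was at 44.6, 27.3 and 24.6 at P7 and 1.39, 3.88 and 0.238 at P30 (log2 fold change -3.72 ± 0.76, adjusted p = 0.00357) and Ifit1 was at 35.95, 10.5 and 17.9 at P7 and 2.66, 0 and 0.0391 at P30 (log2 fold change -3.68 ± 0.75, adjusted p = 0.00376). Both encode antiviral proteins that bind foreign RNA. Mx1 fell (log2 fold change -2.97 ± 0.67, adjusted p = 0.00801), a call lost without P7 replicate 1. Abundant members did not pass. Ifitm3 was at 90.9, 136 and 76.9 at P7 and 156, 252 and 152 at P30, higher in every P30 library (log2 fold change 0.87 ± 1.62, adjusted p = 0.838). Bst2 had a log2 fold change of -0.41 ± 0.48, adjusted p = 0.703, and Ifi27l2a had -3.23 ± 1.41, adjusted p = 0.191. Oas2, an antiviral enzyme outside the list, was at 5.83, 5.38 and 7.85 at P7 with no read at P30, at least 87.2-fold lower (log2 fold change -2.86 ± 0.39, adjusted p = 5.08e-05). The motif GAAANN followed directly by GAAA, searched on both strands, was in 2 of 3 called members with a promoter entry, in 8 of 13 tested members with one and in 3.49% of all promoters.

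Genes of MHC class II, which present peptides from outside the cell, were higher at P30. Of 8 tested, 5 were called higher and 0 lower, against 1.53% of all genes called higher, and the median log2 fold change was 3.56. Without P7 replicate 1 only 2 were called, and without P7 replicate 3, P30 replicate 1 or P30 replicate 2 only 3. H2-Ab1, the beta chain of the I-A molecule, was at 1.11, 1.24 and 0.761 at P7 and 218, 699 and 132 at P30. It was near 1 in every P7 library and varied widely between P30 libraries (log2 fold change 7.08 ± 1.57, adjusted p = 0.00671). H2-Aa, the alpha chain, was at 0, 2.33 and 0 at P7 and 161, 395 and 91.8 at P30 and rose (log2 fold change 6.92 ± 1.42, adjusted p = 0.00378). H2-Eb1 was at 0, 3.88 and 0 at P7 and 123, 298 and 26.2 at P30 (log2 fold change 5.88 ± 1.45, adjusted p = 0.0141), a call lost without P7 replicate 1, P7 replicate 3, P30 replicate 1 or P30 replicate 2. H2-DMb2, part of the peptide loading molecule, rose (log2 fold change 3.60 ± 0.84, adjusted p = 0.00978), a call lost without P7 replicate 1, and H2-DMa (log2 fold change 3.28 ± 0.99, adjusted p = 0.0472) lost its call without any one library. Cd74, the invariant chain, was at 842, 767 and 674 at P7 and 2405, 3439.6 and 818 at P30 with overlapping groups (log2 fold change 1.32 ± 1.59, adjusted p = 0.713). H2-DMb1 was at 19.4, 15.3 and 9.12 at P7 and 259.7, 235 and 80.2 at P30 (log2 fold change 3.51 ± 1.27, adjusted p = 0.1). Of 9 MHC class I genes 1 was called lower and 0 higher, against 5.08% of all genes called lower. With one SNc library left out, 0 or 1 was called lower. B2m, the shared light chain, was at 2537, 2751 and 2468 at P7 and 837, 2374 and 1298 at P30 (log2 fold change -0.91 ± 1.17, adjusted p = 0.734).

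Of 28 immediate early and dissociation stress genes, 7 were called lower and 0 higher, against 5.08% of all genes called lower, with a median of -0.77 beside -0.27 for all genes. These genes respond to signals within minutes, and many rise when tissue is dissociated. Nr4a2, a nuclear receptor that is also a transcription factor of dopaminergic neurons, was at 65.7, 65.97 and 40.2 at P7 and 0.211, 0 and 0.179 at P30 and fell (log2 fold change -5.66 ± 0.61, adjusted p = 4.05e-06). The related receptor Nr4a1 was at 1708, 1442 and 1406 at P7 and 121, 197 and 83.2 at P30 (log2 fold change -3.58 ± 0.81, adjusted p = 0.00767), and Nr4a3 was at 17.2, 15.4 and 11.1 at P7 and 0, 0.867 and 0.642 at P30 (log2 fold change -3.40 ± 0.55, adjusted p = 0.000392). The transcription factor Egr3 (log2 fold change -3.80 ± 0.64, adjusted p = 0.000583) and the phosphatase Dusp2 (log2 fold change -3.32 ± 0.50, adjusted p = 0.000159) fell too. The 3 members with the highest mean over both ages did not pass. Junb was at 3569, 2859 and 2959.6 at P7 and 2141, 2033 and 1261 at P30 (log2 fold change -0.82 ± 0.69, adjusted p = 0.556), Jun at 922, 931 and 816 at P7 and 1129.8, 1828 and 1290.4 at P30 (log2 fold change 0.64 ± 0.76, adjusted p = 0.708) and Dusp1 at 823, 971 and 1016 at P7 and 2950.0, 3974 and 2707 at P30 (log2 fold change 1.76 ± 0.80, adjusted p = 0.212). Dusp1 and Jun were higher in every P30 library than in any P7 library, and the summed level of the list was 12760 to 13395 at P7 and 8512 to 15729 at P30. The part of dissociation in these values was not tested.

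Genes of the cell cycle were lower at P30. Of 28 tested, 14 were called lower and 0 higher, against 5.08% of all genes called lower, with a median of -1.89. The P30 libraries lay below the P7 libraries in 24 of 28, against 23.7% of all genes. With one SNc library left out, 10 to 14 were called lower. The promoters of Ccnb2 and Cdca3 are printed to show 2 short motifs that promoters of genes of mitosis often hold. They come from the same table, and capitals mark CCAAT and TTTGAA on either strand.
Ccnb2 (chr9:70421505-70421804, minus strand): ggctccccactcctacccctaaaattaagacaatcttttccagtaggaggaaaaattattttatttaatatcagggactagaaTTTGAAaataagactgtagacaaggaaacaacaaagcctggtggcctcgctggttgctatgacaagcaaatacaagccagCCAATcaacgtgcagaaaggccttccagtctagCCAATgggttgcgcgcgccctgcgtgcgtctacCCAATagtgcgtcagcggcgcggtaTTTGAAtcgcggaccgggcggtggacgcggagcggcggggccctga
Cdca3 (chr6:124829926-124830225, plus strand): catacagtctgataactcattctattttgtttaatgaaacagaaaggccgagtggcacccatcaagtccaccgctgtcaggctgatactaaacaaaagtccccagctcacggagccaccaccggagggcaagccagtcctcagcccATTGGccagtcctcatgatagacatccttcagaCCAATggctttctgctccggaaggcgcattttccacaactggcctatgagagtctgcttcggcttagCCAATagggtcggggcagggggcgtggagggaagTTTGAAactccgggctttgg

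Counted from the start, CCAAT began at -87, -54 and -21 in the Ccnb2 promoter. In the Cdca3 promoter it began at -104 (minus strand), -71 and -4. Both motifs together were in 9 of the 13 called genes with a promoter entry, in 14 of the 24 tested genes with one and in 7.12% of all promoters. Counted with or without the other motif, CCAAT was in 11 of the 13 and in 37.9% of all promoters. TTTGAA, counted the same way, was in 9 of the 13 and in 18.1%.

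Ccnb2, cyclin B2, was at 49.8, 29.1 and 40.9 at P7 and 0, 3.18 and 0.0679 at P30 and fell (log2 fold change -4.60 ± 0.83, adjusted p = 0.00118). Ccnb1, cyclin B1, was at 11.6, 9.54 and 28.3 at P7 and 0.0254, 1.103 and 0 at P30 (log2 fold change -3.60 ± 0.44, adjusted p = 1.62e-05). Both drive entry into mitosis, and both were near 0 in 2 of the 3 P30 libraries. Mki67, the proliferation marker Ki-67, was at 4.59, 7.22 and 4.18 at P7 and 0, 0.924 and 0 at P30 (log2 fold change -2.32 ± 0.41, adjusted p = 0.000838). Cdca3, a trigger of mitotic entry, was at 10.3, 18.1 and 13.01 at P7 and 0, 0.0377 and 0 at P30 with 1 read over the P30 libraries, a ratio of 0.0009 (95% counting interval 2.28e-05 to 0.00502) (log2 fold change -3.83 ± 0.79, adjusted p = 0.00384). Aurkb, a kinase of chromosome segregation, had 2 reads over the P30 libraries, a ratio of 0.00255 (95% counting interval 0.000309 to 0.00924) (log2 fold change -3.33 ± 0.62, adjusted p = 0.00168). The checkpoint kinase Bub1b was at 4.03, 7.38 and 6.66 at P7 with no read at P30, at least 79.4-fold lower (log2 fold change -2.78 ± 0.47, adjusted p = 0.000549). Other members did not pass. Pcna, the clamp of DNA polymerase, was at 68.7, 57.3 and 64.02 at P7 and 22.9, 37.9 and 32.5 at P30 (log2 fold change -1.03 ± 0.84, adjusted p = 0.543), Aurka had a log2 fold change of -1.64 ± 0.77, adjusted p = 0.226, and Ccnd1, cyclin D1, was at 3.45, 7.73 and 7.43 at P7 and 13.2, 18.3 and 17.2 at P30, higher in every P30 library without passing (log2 fold change 1.31 ± 0.96, adjusted p = 0.484).

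Most neuronal genes that changed were lower at P30. Of 20 dopaminergic genes 13 passed the filter, 4 were called lower and 1 higher, against 5.08% and 1.53% of all genes. Their median was -1.63, or -2.38 with genes at 0 in a group set at their bound. The summed level of the list was 109, 124 and 157 at P7, of which Nr4a2 gave 65.7, 65.97 and 40.2. At P30 it was 56.6, 30.0 and 27.2, of which Aldh1a1 gave 54.4, 17.1 and 22.7. The sums thus rest largely on single genes that are not particular to dopaminergic neurons. Besides Nr4a2, Gch1, whose enzyme starts synthesis of the cofactor that Th needs, was at 10.95, 14.6 and 14.97 at P7 and 1.52, 1.66 and 1.297 at P30 and fell (log2 fold change -2.53 ± 0.48, adjusted p = 0.00196). Slc10a4, a vesicular protein, was at 6.47, 10.8 and 10.9 at P7 with no read at P30, at least 60.9-fold lower (log2 fold change -3.34 ± 0.75, adjusted p = 0.00744). Calb1, the calcium buffer calbindin, fell (log2 fold change -2.59 ± 0.71, adjusted p = 0.0269), a call lost without P7 replicate 1, P7 replicate 3, P30 replicate 1 or P30 replicate 2. Aldh1a1, a retinaldehyde dehydrogenase of ventral SNc neurons that other cell types also express, was at 0.0294, 0.962 and 2.58 at P7 and 54.4, 17.1 and 22.7 at P30 and rose (log2 fold change 3.89 ± 0.82, adjusted p = 0.00471).

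Of 15 pan-neuronal genes, 5 were called lower and 0 higher, against 5.08% of all genes called lower, with a median of -1.58. The P30 libraries lay below the P7 libraries in 12 of 15, against 23.7% of all genes. With any one SNc library left out, 3 were called lower. Stmn2, a microtubule regulator of axons, was at 51.1, 53.1 and 37.4 at P7 and 0.191, 0.753 and 1.11 at P30 (log2 fold change -4.86 ± 0.60, adjusted p = 1.88e-05), and the vesicle calcium sensor Syt1 was at 29.004, 23.1 and 19.8 at P7 and 0.0513, 0.791 and 0.711 at P30 (log2 fold change -4.06 ± 0.62, adjusted p = 0.0002). Uchl1 was at 46.9, 48.4 and 46.3 at P7 and 51.7, 9.67 and 21.4 at P30 (log2 fold change -1.05 ± 0.83, adjusted p = 0.528) and Snap25 at 14.3, 15.1 and 20.7 at P7 and 10.2, 5.81 and 11.6 at P30 (log2 fold change -0.83 ± 0.65, adjusted p = 0.529), so that neuronal RNA was detected at both ages. Of 18 genes of immature neurons and axon growth, 10 were called lower and 0 higher, against 5.08% of all genes called lower, with a median of -2.37. Without any one P7 library only 6 were called. Marcksl1, an actin regulator that microglia also express, was at 2215, 2376 and 2729.7 at P7 and 114, 248 and 173 at P30 (log2 fold change -3.83 ± 0.83, adjusted p = 0.00585). It had the highest level of the list in all 6 libraries. Crmp1, a protein of axon guidance, was at 21.9, 20.3 and 23.1 at P7 and 0, 0 and 0.664 at P30 (log2 fold change -4.26 ± 0.52, adjusted p = 1.62e-05). Dcx, a marker of migrating neurons, was at 5.91, 4.69 and 1.76 at P7 and 0, 0.197 and 0 at P30 (log2 fold change -2.17 ± 0.41, adjusted p = 0.00184), and the transcription factor Sox11 was at 9.24, 12.2 and 7.18 at P7 and 1.69, 0.299 and 1.001 at P30 (log2 fold change -2.44 ± 0.55, adjusted p = 0.0076). Stmn1 was at 114, 189.6 and 154 at P7 and 26.8, 28.97 and 37.9 at P30 and did not pass (log2 fold change -2.24 ± 0.93, adjusted p = 0.167).

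Of 11 genes of GABAergic and glutamatergic neurons tested, 5 were called lower and 0 higher, against 5.08% of all genes called lower, with a median of -1.01, or -1.84 with genes at 0 set at their bound. Only 3 were called without P7 replicate 1, without P7 replicate 3 or without P30 replicate 3. The enzymes of GABA synthesis Gad1, at 16.7, 11.2 and 10.8 at P7 and 1.81, 0.566 and 0 at P30 (log2 fold change -3.06 ± 0.65, adjusted p = 0.00515), and Gad2, at 6.29, 12.9 and 7.94 at P7 and 0.0182, 0.129 and 0.106 at P30 (log2 fold change -3.16 ± 0.63, adjusted p = 0.00316), fell. The peptide somatostatin, Sst, was at 28.9, 11.4 and 51.1 at P7 with no read at P30, at least 67.7-fold lower (log2 fold change -4.75 ± 0.96, adjusted p = 0.00351). Avp, the hormone vasopressin, was at 46.8, 57.96 and 1043 at P7 and 0, 4.498 and 0 at P30. One P7 library held most of its signal, and the ages did not overlap (log2 fold change -6.34 ± 1.05, adjusted p = 0.000532).

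**Figure D3:**
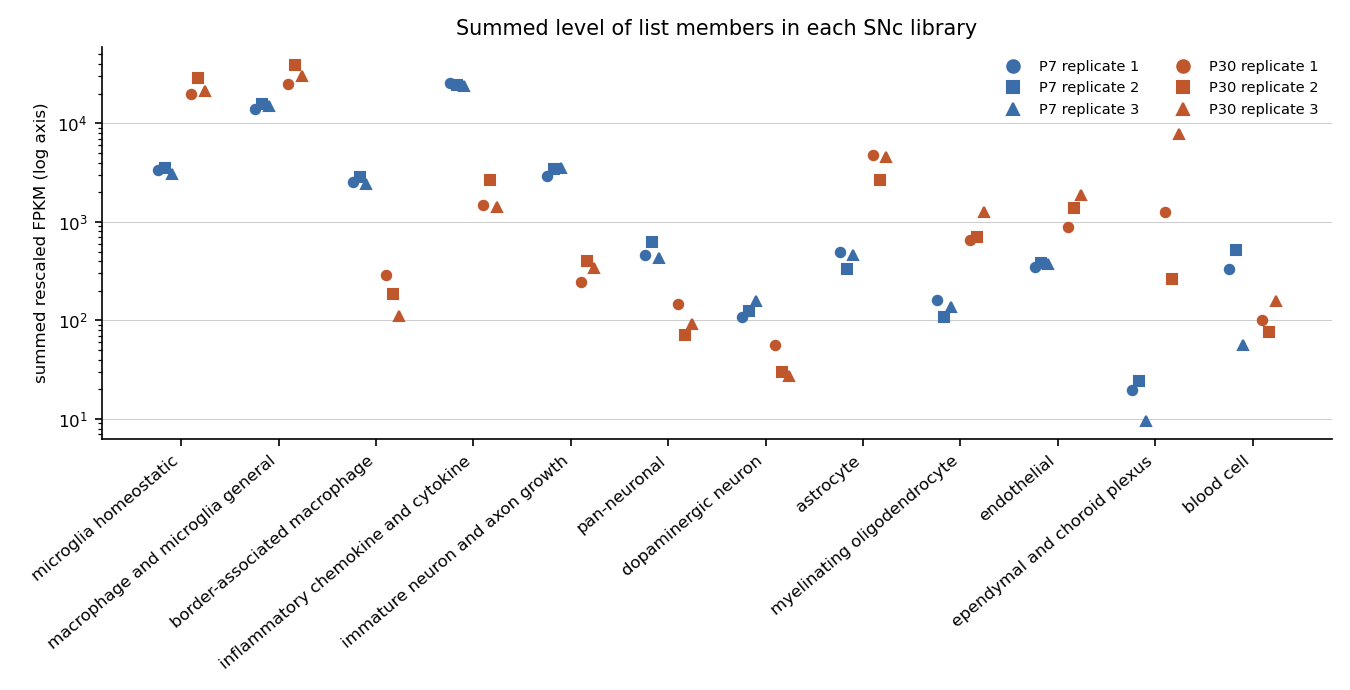
Summed rescaled FPKM, on a log axis, of the members of 12 gene lists in each of the 6 SNc libraries, with marker shape giving the replicate and colour the age. The homeostatic microglia list lies at 3079 to 3520 at P7 and 19975 to 29042 at P30, and the ependymal and choroid plexus list reaches 7811 in P30 replicate 3.

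Genes of astrocytes were higher at P30. Of 16 tested, 10 were called higher and 0 lower, against 1.53% of all genes called higher, with a median of 2.53. Their summed level was 332 to 495 at P7 and 2645 to 4784 at P30. With one SNc library left out, 7 to 9 were called, and 4 with the values as deposited. Gjb6, the gap junction protein connexin 30, was at 3.17, 3.72 and 4.08 at P7 and 90.3, 63.3 and 148 at P30 (log2 fold change 4.37 ± 0.68, adjusted p = 0.000303), and Slc1a2, the main glutamate transporter, was at 18.7, 14.8 and 14.3 at P7 and 138, 70.8 and 134 at P30 (log2 fold change 2.72 ± 0.46, adjusted p = 0.000549). The neurotensin receptor Ntsr2 was at 22.5, 7.605 and 8.05 at P7 and 312, 243 and 368 at P30 (log2 fold change 4.64 ± 0.84, adjusted p = 0.00118). Gfap and Aqp4 did not pass the test. Gfap, the intermediate filament, was at 38.4, 30.5 and 145 at P7 and 67.3, 82.9 and 138 at P30 with overlapping groups (log2 fold change 0.71 ± 0.89, adjusted p = 0.726), and the water channel Aqp4 was at 30.4, 13.7 and 25.6 at P7 and 83.3, 94.1 and 134 at P30 without overlap (log2 fold change 2.16 ± 0.66, adjusted p = 0.0503).

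Among the 10 genes with the largest increase were 4 outside the lists. Thrsp, a regulator of lipid synthesis, had no read at P7 and was at 155, 54.6 and 79.5 at P30, at least 934-fold higher against a floor of 3 reads per library (log2 fold change 6.47 ± 0.62, adjusted p = 1.24e-06). Mlxipl, a glucose-responsive transcription factor of lipid synthesis, was at 0.863, 2.05 and 2.51 at P7 and 91.6, 109 and 122 at P30 (log2 fold change 5.31 ± 1.13, adjusted p = 0.00509). The progestin receptor family member Paqr6 was at 0.0597, 0.3101 and 5.76 at P7 and 87.3, 89.4 and 138 at P30 (log2 fold change 5.62 ± 1.05, adjusted p = 0.00163). Lcat, which esterifies cholesterol, was at 12.8, 0 and 7.64 at P7 and 286, 142 and 164 at P30 (log2 fold change 5.27 ± 1.19, adjusted p = 0.00785), a call lost without P7 replicate 2.

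Of 15 genes of myelinating oligodendrocytes, 5 were called higher and 0 lower, against 1.53% of all genes called higher, with a median of 1.97. Only 3 were called without P7 replicate 2, without P7 replicate 3 or without P30 replicate 3, and 2 with the values as deposited. Mbp, myelin basic protein, was at 9.16, 4.79 and 7.98 at P7 and 143, 178 and 323 at P30 (log2 fold change 4.65 ± 0.52, adjusted p = 6.65e-06). Mag, a myelin adhesion molecule, was at 2.72, 1.57 and 3.54 at P7 and 38.1, 54.99 and 156 at P30 (log2 fold change 4.31 ± 0.70, adjusted p = 0.000428). Cnp was at 33.6, 26.2 and 37.5 at P7 and 79.4, 95.5 and 95.6 at P30 without overlap and did not pass (log2 fold change 1.46 ± 0.56, adjusted p = 0.126). Of 11 oligodendrocyte precursor genes limma called 0, while 2 had an unadjusted p under 0.05, and their median was 0.23. Voom on the recovered reads called 0 of them.

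Vascular genes that changed were higher at P30. Of 15 endothelial genes 3 were called higher and 0 lower, against 1.53% of all genes called higher, and only 1 without P7 replicate 2, without P7 replicate 3 or without P30 replicate 3. Bsg, basigin, a surface protein that other cells also carry, was at 312, 347 and 331 at P7 and 860.1, 1232 and 1526 at P30 (log2 fold change 1.83 ± 0.37, adjusted p = 0.00306). The tight junction protein Cldn5 was at 6.396, 8.88 and 6.41 at P7 and 14.5, 49.7 and 102 at P30 (log2 fold change 2.41 ± 1.10, adjusted p = 0.214). Of 11 mural and fibroblast genes 2 were called higher, Pdgfrb and Kcnj8, against 1.53% of all genes called higher. The number was 0 without any one P7 library or without P30 replicate 3. Of 9 ependymal and choroid plexus genes 2 were called higher, against 1.53% of all genes, and 1 without P7 replicate 2 or P7 replicate 3. Ttr, the thyroid hormone carrier made by choroid plexus, was at 17.8, 16.8 and 6.49 at P7 and 1135, 176 and 7765 at P30 (log2 fold change 6.42 ± 1.06, adjusted p = 0.000517). It varied widely between P30 libraries, and P30 replicate 3 was the highest. Tmem212 had no read at P7 and was at 89.01, 36.7 and 0.145 at P30 (log2 fold change 3.97 ± 1.47, adjusted p = 0.11). Of 6 blood cell genes limma called 0, while 2 had an unadjusted p under 0.05 and voom on the recovered reads called 1 lower. Hba-a1, a haemoglobin chain with a near-identical copy, was at 211, 322 and 25.6 at P7 and 54.7, 25.8 and 47.9 at P30 (log2 fold change -1.55 ± 0.97, adjusted p = 0.4). Of 6 genes of neutrophils, monocytes and lymphocytes tested, Cd4 was the only one called, against 5.08% of all genes called lower. It was at 16.9, 20.4 and 18.7 at P7 and 0, 0.5095 and 0 at P30 and fell (log2 fold change -4.10 ± 0.50, adjusted p = 1.74e-05). The part of these cell types in the changes of other genes was not tested.

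The TGF-beta, cholesterol synthesis, glycolysis and mitochondrial lists had called members in small numbers, given here beside the shares of all genes. Of 16 TGF-beta genes 2 were called higher and 1 lower, against 1.53% and 5.08% of all genes, with a median of 0.0064. With one SNc library left out, 1 or 2 were called higher and 0 or 1 lower. Ltbp1, which holds latent TGF-beta in the matrix, was at 0, 0.0431 and 0.01398 at P7 and 7.86, 2.22 and 4.19 at P30 (log2 fold change 2.38 ± 0.52, adjusted p = 0.00568). The receptor Tgfbr1 was at 3.89, 4.01 and 4.54 at P7 and 22.7, 22.7 and 19.8 at P30 (log2 fold change 2.14 ± 0.54, adjusted p = 0.0162), a call lost without P7 replicate 1, P7 replicate 2 or P30 replicate 1. The feedback inhibitor Smad7 did not pass (log2 fold change 2.24 ± 0.73, adjusted p = 0.0645). Of 19 cholesterol synthesis genes 1 was called lower, a share near the 5.08% of all genes called lower. Of 14 glycolysis genes 1 was called higher, against 1.53% of all genes, and 0 with any one SNc library left out. The glycolytic enzyme Eno1 was at 100.7, 112 and 119 at P7 and 215, 279 and 291 at P30 without overlap (log2 fold change 1.23 ± 0.53, adjusted p = 0.184). Of 13 mitochondrially encoded protein genes 1 was called lower, against 5.08% of all genes called lower. It was mt-Nd3, at 11.7, 12.8 and 16.4 at P7 and 0.922, 1.24 and 1.19 at P30 (log2 fold change -2.78 ± 0.62, adjusted p = 0.00691). The abundant mt-Cytb was at 22577, 17206 and 20060.2 at P7 and 78098, 25603 and 48933 at P30 (log2 fold change 1.22 ± 0.46, adjusted p = 0.123).

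The change in SNc was then set against the change over the same ages in NAc and VTA, with the difference itself tested. It differed from that in NAc for 125 genes (0.662% of those tested), 10 (0.0529%) with a higher and 115 (0.609%) with a lower value in SNc, and 2493 at an unadjusted p under 0.05. It differed from that in VTA for 255 genes (1.35%), 174 (0.921%) with a higher and 81 (0.429%) with a lower value, and 2639 at an unadjusted p under 0.05. The number of genes differing from NAc was 24 without NAc P7 replicate 1, and the number differing from VTA was 51 without SNc P30 replicate 3. Fitted on the compared libraries alone, limma called 0 genes differing from VTA, with 1967 at an unadjusted p under 0.05, so that none of the VTA calls given here held in that fit. The balance of higher and lower values against VTA turned under several alternatives. It was 152 higher and 180 lower without VTA P30 replicate 3, 126 and 180 with quantile normalization, and 58 and 75 with the values as deposited, and these settings moved the median difference of all genes from 0.37 to 0.01, 0.04 and 0.07. Against NAc, quantile normalization gave 22 higher and 63 lower and moved the median from -0.47 to -0.0086.

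Border-associated macrophage genes gave 5 of their 12 members among the differences from NAc, all lower, against 0.609% of all genes with a lower value. F13a1 in NAc was at 2.55, 1.57 and 3.48 at P7 and 5.44, 5.51 and 5.99 at P30, so that its SNc change was lower than that in NAc by a log2 difference of -6.66 ± 1.17, adjusted p = 0.0104. In VTA it was at 7.104, 16.9 and 0.0441 at P7 and 1.18, 5.75 and 0.0572 at P30 (difference -4.62 ± 1.17, adjusted p = 0.0476). Lyve1 in NAc was at 10.4, 3.71 and 8.12 at P7 and 12.4, 5.34 and 3.45 at P30 (difference -6.29 ± 1.32, adjusted p = 0.0244), and its difference from VTA did not pass (-4.19 ± 1.32, adjusted p = 0.119). In the SNc P7 libraries these genes were higher than in any P7 library of the other regions. The same held for Bmp2, a growth factor, at 45.5, 50.2 and 31.4 at P7 and 0.993, 0.274 and 0 at P30 in SNc and 0.349, 0.855 and 1.35 at P7 and 0.304, 0.121 and 0.169 at P30 in NAc (difference -4.37 ± 0.80, adjusted p = 0.0139). Csf2 had no read in any NAc or VTA library of these ages (difference from NAc -3.24 ± 0.42, adjusted p = 0.00113).

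Ctss went the other way. It was at 2944, 3044 and 2782 at P7 and 2658, 1566 and 2311 at P30 in NAc (difference 2.67 ± 0.64, adjusted p = 0.0492), while in VTA it was at 461, 464 and 572 at P7 and 9139, 10682 and 4274 at P30 (difference -1.70 ± 0.64, adjusted p = 0.206). Egr1, an immediate early gene, was at 388, 478 and 502.9 at P7 and 77.9, 428 and 188 at P30 in SNc and 844, 790.3 and 843 at P7 and 18.2, 35.8 and 10.04 at P30 in NAc (difference 4.09 ± 0.98, adjusted p = 0.0492). Nr4a2 was at 0.441, 2.74 and 2.74 at P7 and 4.14, 2.32 and 0.518 at P30 in NAc and 17.2, 15.7 and 9.57 at P7 and 0.0223, 0 and 0.0238 at P30 in VTA. Its change differed from NAc (-5.78 ± 0.86, adjusted p = 0.00369) and not, past the threshold, from VTA (-1.80 ± 0.86, adjusted p = 0.351). Ttr was at 124, 137 and 515 at P7 and 0.297, 5.13 and 0.237 at P30 in VTA, with the ages in the opposite order to SNc (difference 13.01 ± 1.5, adjusted p = 0.000133). In VTA, replicate 3 of P30 had 6786 genes with a read and was deposited on another scale.

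**Figure D4:**
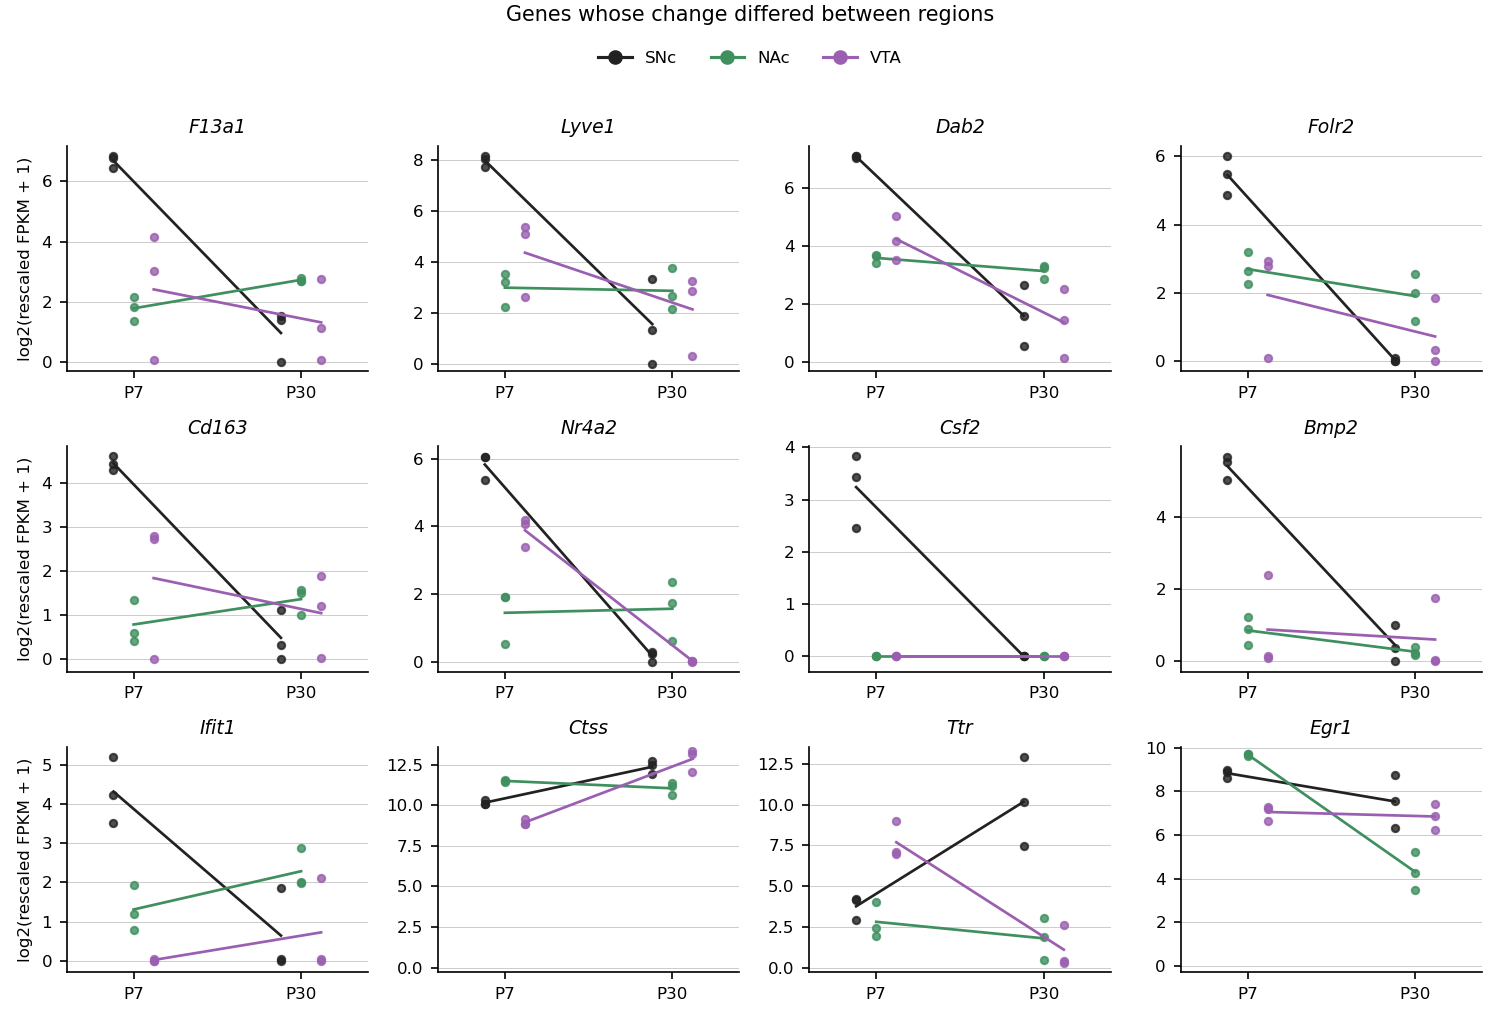
Levels as log2(rescaled FPKM + 1) of 12 genes at P7 and P30 in SNc (black), NAc (green) and VTA (purple), with points for libraries and lines joining group means. F13a1, Lyve1, Dab2, Folr2 and Cd163 are highest in the 3 SNc P7 libraries, and Ctss is lower in SNc than in NAc at P7.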

How the data were processed

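Deposited values are FPKM per gene, made by the authors. HISAT2 and GRCm38/mm10 are named per the submitters' processing notes, with no counter or annotation stated. VTA P30 replicate 3 was deposited as a signal on another scale, proportional to FPKM. The table holds 54532 genes. Its IDs lack the letter M and its name column is shifted, so that 443 names match their ID. Symbols were taken by ID from GENCODE M21 (123 had none). Values times length gave whole reads in all 27 libraries within a tolerance of 0.02 reads.

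The FPKM of each library was divided by its sum of FPKM times kb. The filter kept 18888 genes at 1 or more in 3 or more libraries. On log2(value + 1), one limma fit with group means over the 27 libraries was used (version 3.58.1, lmFit, then eBayes with trend and robust; R 4.3.3, statmod 1.5.0), adjusted by Benjamini-Hochberg at 0.05. Floors are 3 reads per library, and intervals cover counting error only. The fit was checked on simulated data with the spread measured in these libraries. It gave the right direction and few false calls but missed most of the altered genes, and recovery was high only with less spread than most groups have. A gene that was not called is therefore not shown to be unchanged.

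The members and lists were chosen with earlier results of these data known. Named genes are the 10 largest increases and decreases with non-overlapping groups and a mean of at least 5, up to 6 called members of each list with the smallest adjusted p, up to 3 abundant members not called, Slc6a3, Th, Slc18a2, Ddc and Nr4a2, and the 5 smallest adjusted p in each direction of the region differences. Not all are printed, and some genes are not reported here. Other uncalled members, Cdca3, P2ry12, Pf4 and the secretory genes at the end were picked after their values were seen. Promoters are RefSeq's (GRCm38.p6). Same-numbered P7 and P30 libraries were not correlated and no pairing was used. Other steps ran in Python 3.11.15 (numpy 2.4.6; pandas 2.3.3), with scipy 1.17.1 for intervals and matplotlib 3.10.9 for figures.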

Additional observations from a re-analysis of the deposited data

Results flagged for a closer look

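The change from P7 to P30 in SNc differed from that in another region for the genes given here, by a test of the difference itself in limma at an adjusted p under 0.05. Values are log2 differences of the changes, SNc minus the other region. Against NAc 125 genes differed. Of the named genes, those with a lower value in SNc were F13a1 (-6.66), Avp (-6.44), Lyve1 (-6.29), Nr4a2 (-5.78), Tnfsf18 (-5.06), Dab2 (-5.02), Cxcl1 (-4.95), Ifit1 (-4.66), Folr2 (-4.63), Syt1 (-4.59), Cd163 (-4.55), Il10 (-4.50), Bmp2 (-4.37), Gad2 (-4.23), Gad1 (-4.21), Nrxn3 (-3.95), Cd4 (-3.64), Oas2 (-3.39), Csf2 (-3.24) and Dram1 (-3.23). Those with a higher value were Ctss (2.67), Egr1 (4.09), Gngt2 (4.72) and Ttr (7.44).

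Against VTA 255 genes differed, and 0 in a limma fit of the compared libraries alone (1967 at an unadjusted p under 0.05). Of the named genes, those with a lower value in SNc were Bmp2 (-4.69), F13a1 (-4.62), Igf1 (-4.42), Ifit1 (-4.39), Folr2 (-4.20), Cd4 (-4.07), Tnfsf18 (-4.04), Ccnb1 (-3.47), Dram1 (-3.45), Csf2 (-3.24), Oas2 (-2.39) and C2 (-2.20). Those with a higher value were Shisa4 (4.20) and Ttr (13.01). Leaving out VTA P30 replicate 3, which was deposited on another scale, gave 332 genes differing from VTA, 152 with a higher and 180 with a lower value in SNc. Both differences use the same 6 SNc libraries.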

How the results depend on the processing

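The main SNc comparison called 1249 genes. Its count was 793 with a pseudocount of 0.1, 2017 with only the compared libraries, 1921 without VTA P30 replicate 3 and 682 to 1016 without one SNc library. Chosen after seeing the data, voom with sample weights gave 3270 and a fit without 4 libraries 2787. The 125 genes differing from NAc became 69 with a filter at 5, 4 with a pseudocount of 0.1, 57 with the values as deposited, 1355 with only the compared libraries, 315 without VTA P30 replicate 3, 1888 with voom and sample weights, 723 without 4 libraries and 24 to 117 without one library. The 255 differing from VTA became 35 with a pseudocount of 0.1, 133 with the values as deposited, 0 with only the compared libraries (limma, with 1967 at an unadjusted p under 0.05), 508 with voom and sample weights, 789 without 4 libraries and 51 to 348 without one library. The cause was not tested. The direction of 163 named genes was followed, the called ones and the uncalled ones that are printed, apart from Ifitm3, Bst2 and Ifi27l2a. Only Nfkbia, not called in any setting, changed direction (-0.71 to 0.17 without one SNc library, the highest without P30 replicate 1). Of 120 called ones, 82 were called without each SNc library in turn. Same-numbered P7 and P30 libraries of SNc were not correlated (correlations 0.00713, 0.01348 and -0.00318). Whether same-numbered libraries of different regions share mice was not checked. With the replicate block 1227, 88 and 187 genes were called. Depth limits low genes, and fewer genes had a read at P30.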

Other observations

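These 5 genes were chosen after their values were seen and because they were lower at P30, so they say nothing of a group. Chga, chromogranin A of dense-core vesicles, was at 61.5, 70.8 and 51.02 at P7 and 0.233, 0.824 and 9.32 at P30 (log2 fold change -4.43 ± 0.83, adjusted p = 0.00169 by limma). Chgb, chromogranin B, was at 48.1, 92.6 and 51.1 at P7 and 6.09, 8.21 and 0 at P30 (log2 fold change -3.95 ± 0.75, adjusted p = 0.0019). Scg2, secretogranin II, was at 94.7, 119 and 107 at P7 and 1.32, 5.29 and 14.6 at P30 (log2 fold change -4.14 ± 0.96, adjusted p = 0.00929), a call lost without P30 replicate 1. Penk, the precursor of enkephalins, was at 17.3, 11.5 and 27.3 at P7 and 0, 1.79 and 0 at P30 (log2 fold change -3.73 ± 0.69, adjusted p = 0.00163). Tac1, the precursor of substance P, was at 5.37, 4.74 and 14.4 at P7 and 0, 0.0318 and 0 at P30 with 1 read over the P30 libraries (log2 fold change -3.03 ± 0.65, adjusted p = 0.00533).

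The 3 SNc libraries of P60, which the comparison does not use, gave these levels. Tmem119 was at 2295, 1958 and 1437 and Cst3 at 12758, 11753 and 16744, both overlapping the P30 libraries. Ccl2 was at 137, 243 and 151 and Ccl7 at 85.9, 36.8 and 34.1. H2-Ab1 was at 47.4, 0.0982 and 87.8, with one library near 0. Mbp was at 1669.6, 1432 and 2252, above all P30 libraries, and Ttr was at 57.3, 19.9 and 82.9, below all P30 libraries. Slc6a3 was at 1.35, 0.326 and 2.48 and Th at 4.34, 0 and 19.9.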
